A study of Drosophila melanogaster with 48 samples.

Results

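The transposon insertions that belong to families of LTR retrotransposons were examined in fly brain RNA. They were chosen by name alone: a feature of the deposited count tables was taken when it was not a gene and the family name before its braces, as in roo{}39, was 1 of 57 listed LTR families. This gave 1318 insertions in 55 of the 57 families, out of 23932 features in each table, of which 17869 were genes and 5554 were transposon insertions of any kind. The families qbert and Max-element had no insertion in the tables. The largest families were roo with 140 insertions and 297 with 81 insertions.

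The study sequenced ribosome-depleted RNA from dissected brains of adult flies labelled wild type, which its methods describe as progeny of nSyb-GAL4 males and w1118 females. D3Inj flies received 15 head-first impacts on day 3 after eclosion, and sham flies were placed in the same vials without impacts. Males (M), females mated to wildtype males (F), virgin females (V) and females mated to SP0 males, which lack sex peptide (SP), were taken on day 45 (D45) or day 4 (D4). Each of the 16 groups had 3 libraries of independent cohorts, with the brains of 40 flies in each library. All groups came from this cross, so no group without the nSyb-GAL4 transgene was compared. By its direction, males take their X from w1118 mothers only and their Y from the nSyb-GAL4 stock, while females take an X from each stock. Males and females thus differ in stock of origin on the X and Y, and this cannot be separated from sex here. P-values measure the spread between the 3 libraries of a group.

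LTR retrotransposons are retrovirus-like elements with a long terminal repeat at each end. The repeat at the 5′ end starts a transcript that encodes gag, the capsid protein, and pol, the protease, reverse transcriptase and integrase, and in some families env. They are grouped into the gypsy, copia and BEL superfamilies, and roo belongs to the BEL group. In ovaries they are repressed by Piwi proteins loaded with piRNAs from clusters such as flamenco, and in somatic tissue, including the head, by Dicer-2 and AGO2 with siRNAs. An element inserted in an intron also lies within the primary transcript of its host gene.

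The deposited counts summed to between 21495740 and 60637359 per library, with a median of 35543946. The identity of each library was taken from the column header of its table, since header and deposit record differed in 47 of 48 tables. By header, 12 of 12 male libraries and 0 of 36 female libraries had over 1000 CPM (a library's counts scaled to a common total) of roX1, the male dosage compensation RNA, and by the record 2 of 12 male and 10 of 36 female libraries did. roX1 lay between 5519.5 and 6323.1 CPM in males and between 16.9 and 56.7 CPM in females. All 5 neuronal and all 5 glial markers averaged over 1 CPM, and the 6 ovary and germline markers summed to 0.574 to 10.7 CPM in sham D45 libraries and to 0.133 to 1.44 CPM in sham D4 libraries, with none of the 6 averaging over 1 CPM. Gut markers summed to as much as 1664.2 CPM in a sham D4 library against a median of 2.27 CPM, and 4 such D4 libraries were left out as an alternative.

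LTR insertions took a small and steady share of the reads. They held between 0.165% and 0.254% of the counts of a library, with a median of 0.212%, or 43812 to 154060 counts. Of the 1318 insertions 295 had no count in any library, so that at most 3 counts are compatible with the 0 of any 1 library, and 1023 had at least 1 count. The 10 insertions with the most counts held 26.1% of all LTR counts, the first 50 held 52.4% and the first 100 held 65.9%. Filtering on low counts left 714 insertions in the fit of all 48 libraries, 596 in the fit of D4 and 694 in the fit of D45. The filter asks for enough counts in as many libraries as a group holds. A sparse insertion can thus pass through the groups where it is high.

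Of the 10 insertions with the highest levels 8 lay in introns. invader2{}1169 (3L:23271761-23276816, plus strand, in Ensembl's annotation of the fly assembly dm6, as for all positions here) overlaps an exon of lncRNA:CR46475 within nAChRalpha4, a nicotinic acetylcholine receptor subunit gene, and averaged 190.1 ± 47.0 CPM over the 48 libraries (SD), or 37.6 CPM per kb. rooA{}1496 (4:282778-289529) in an intron of Syt7, a synaptotagmin, averaged 82.1 ± 12.2 CPM. diver2{}4400 and diver2{}4032, both in introns of nAChRalpha4, averaged 61.3 and 26.5 CPM, and per kb of insertion 27.5 and 33.7 CPM. By level per length, those 3 insertions in nAChRalpha4 were thus the highest of the 10 most abundant insertions. The other 6 were invader2{}RR46358 in Parp1 with 38.6 CPM, copia{}920 in Eip63E with 34.0 CPM, 297{}4042 in Cadps with 32.9 CPM, Tirant{}913 in Shab with 29.2 CPM, gypsy6{}RR48376 in Dbp80 with 27.7 CPM and copia{}293, outside any gene, with 25.7 CPM.

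Reads from an unspliced host transcript and reads started in the insertion cannot be told apart in these tables. How reads that match several copies of a family were counted, and whether the strand was used, is not given in the sources used here. Neighbouring copies of a family share sequence, so a count for 1 insertion is uncertain where a near-identical copy exists. The insertions are those of the reference genome, and which of them the flies used here carried was not tested. Insertions within genes held 60.4% of the summed LTR level when intronic and 12.8% when exonic, and those outside genes held 26.8%.

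Summed over all LTR insertions, the level on D45 was close to that on D4. The 12 sham D45 libraries held 1952.5 to 2457.3 CPM with a median of 2147.7 CPM, and the 12 sham D4 libraries 1862.0 to 2205.9 CPM with a median of 2016.3 CPM. The ratio of the means was 1.06, and the 2 ranges overlapped. In D3Inj brains the ratio was 1.04, with medians of 2162.0 CPM on D45 and 2103.3 CPM on D4. In bulk brain RNA, more cells of a type and more RNA per cell cannot be told apart, here and in every comparison below.

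Single families moved in opposite directions. Counts of all insertions of a family were added up and tested with edgeR's quasi-likelihood test on the mean of the 4 kinds of fly, with Benjamini-Hochberg adjustment over all 12885 genes, families and other features. At an adjusted p under 0.05, here termed called, 18 of 54 sham families were higher on D45 than on D4, where 29.8% of all features were, and 20 were lower, where 28.1% were. Of the 18, 17 were also called higher in D3Inj brains, and of the 20, 18 were also called lower there. In D3Inj brains alone, 29.1% of all features were called higher and 29.1% lower. Only 4 families, HMS-Beagle, GATE, Circe and copia, were more than 2-fold higher and 0 were more than 2-fold lower. The shares of all features called in both treatments, or changed by more than 2-fold, are not given here.

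**Figure D1:**
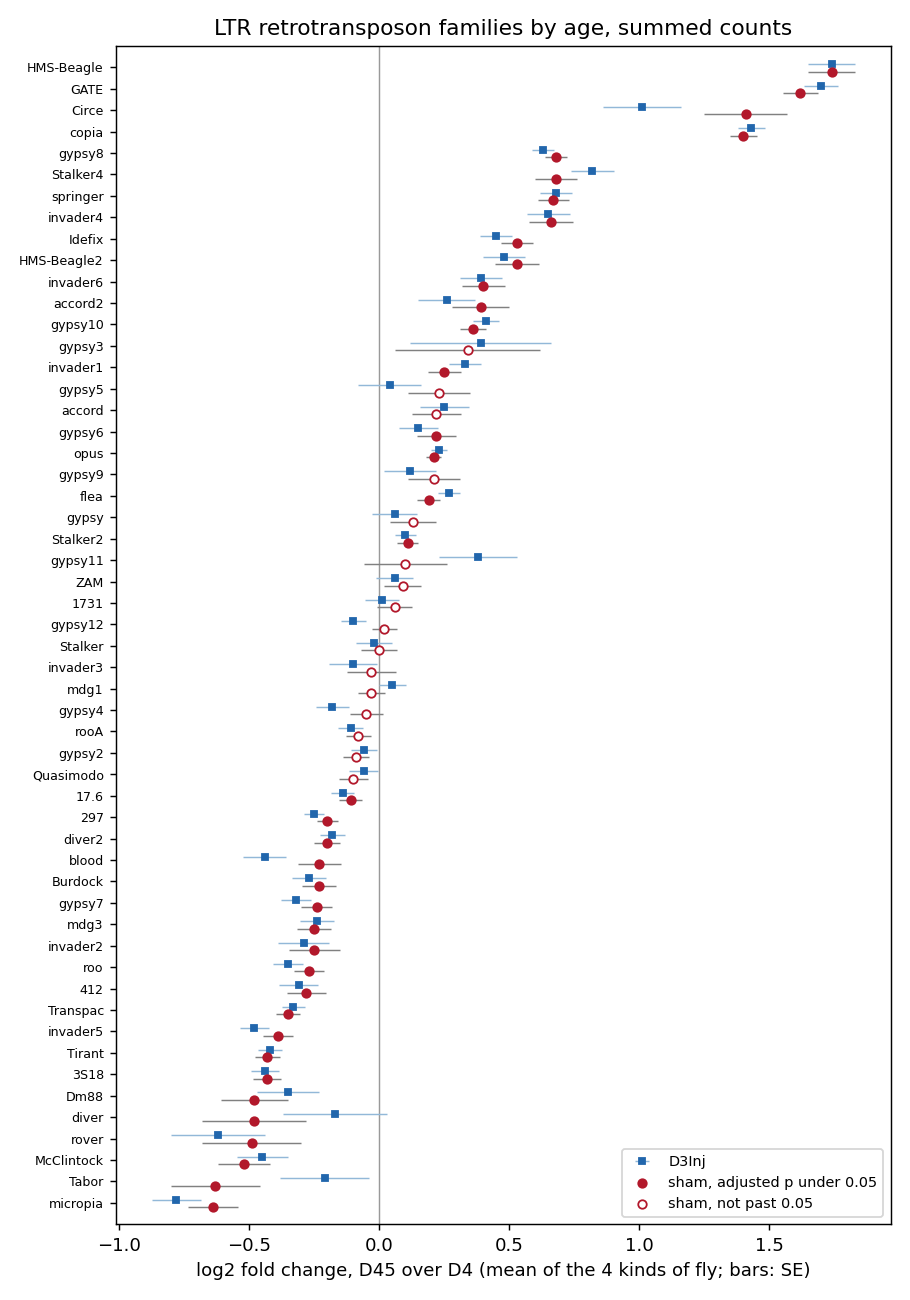
Log2 fold change of the summed counts of 54 LTR families, D45 over D4, averaged over the 4 kinds of fly, in D3Inj (squares) and sham brains (circles, filled when called), with bars of 1 SE. HMS-Beagle, GATE, Circe and copia lie to the right of 1 in both treatments, and micropia is the lowest in sham brains at -0.64.

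copia, the element that gave the copia superfamily its name, had 162.2, 182.3 and 219.7 CPM as lowest, median and highest sham D45 library, against 55.8, 68.6 and 83.5 CPM in sham D4 libraries. The ranges did not overlap, and the log2 fold change was 1.40 ± 0.052 (SE, adjusted p = 3.35e-24, edgeR). The rise was present in every kind of fly, with log2 fold changes of 1.42 in M, 1.44 in F, 1.37 in V and 1.35 in SP, each called, and of 1.43 in D3Inj brains. HMS-Beagle, a gypsy-like element, had 59.9, 79.3 and 106.7 CPM on D45 and 18.0, 24.2 and 28.2 CPM on D4, a log2 fold change of 1.74 ± 0.091 (adjusted p = 1.65e-19, edgeR). Its rise was called in all 4 kinds as well, between 1.58 in SP and 1.97 in V.

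GATE and Circe were less abundant but rose by similar amounts. GATE had 12, 14.0 and 16.5 CPM as lowest, median and highest sham D45 library and 3.83, 4.57 and 5.42 CPM in sham D4 libraries, with no overlap and a log2 fold change of 1.62 ± 0.066 (adjusted p = 5.51e-23, edgeR). Circe had 1.38, 2.20 and 3.84 CPM on D45 and 0.592, 0.820 and 1.06 CPM on D4, a log2 fold change of 1.41 ± 0.16 (adjusted p = 3.99e-10). Circe{}737 held 82.6% of the counts of its family, and without it the family gave 0.84 with an adjusted p of 0.0779. Stalker4 came next, with 18.3 to 25.0 CPM on D45 and 9.54 to 16.0 CPM on D4 and a log2 fold change of 0.68 ± 0.082, which was 0.14 (adjusted p = 0.172) without its most abundant insertion, Stalker4{}2894 in an intron of AGO3.

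A further set of called families rose by less than 2-fold, named here after their values were seen. gypsy8 had 40.6, 47.2 and 50.9 CPM as lowest, median and highest sham D45 library, against 26.3, 28.4 and 33.0 CPM in sham D4 libraries (0.68 ± 0.044, adjusted p = 1.72e-16, edgeR). springer had 44.2, 58.3 and 70.2 CPM on D45 and 31.8, 37.0 and 40.7 CPM on D4 (0.67 ± 0.060, adjusted p = 1.48e-12), and Idefix had 36.9, 43.8 and 55.6 CPM on D45 and 25.7, 30.3 and 34.7 CPM on D4 (log2 fold change of 0.53). For these 3 families, as for HMS-Beagle, GATE, Circe, copia, Stalker4 and gypsy10, every sham D45 library lay above every sham D4 library. The share of all features separated in this way is not given here.

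**Figure D2:**
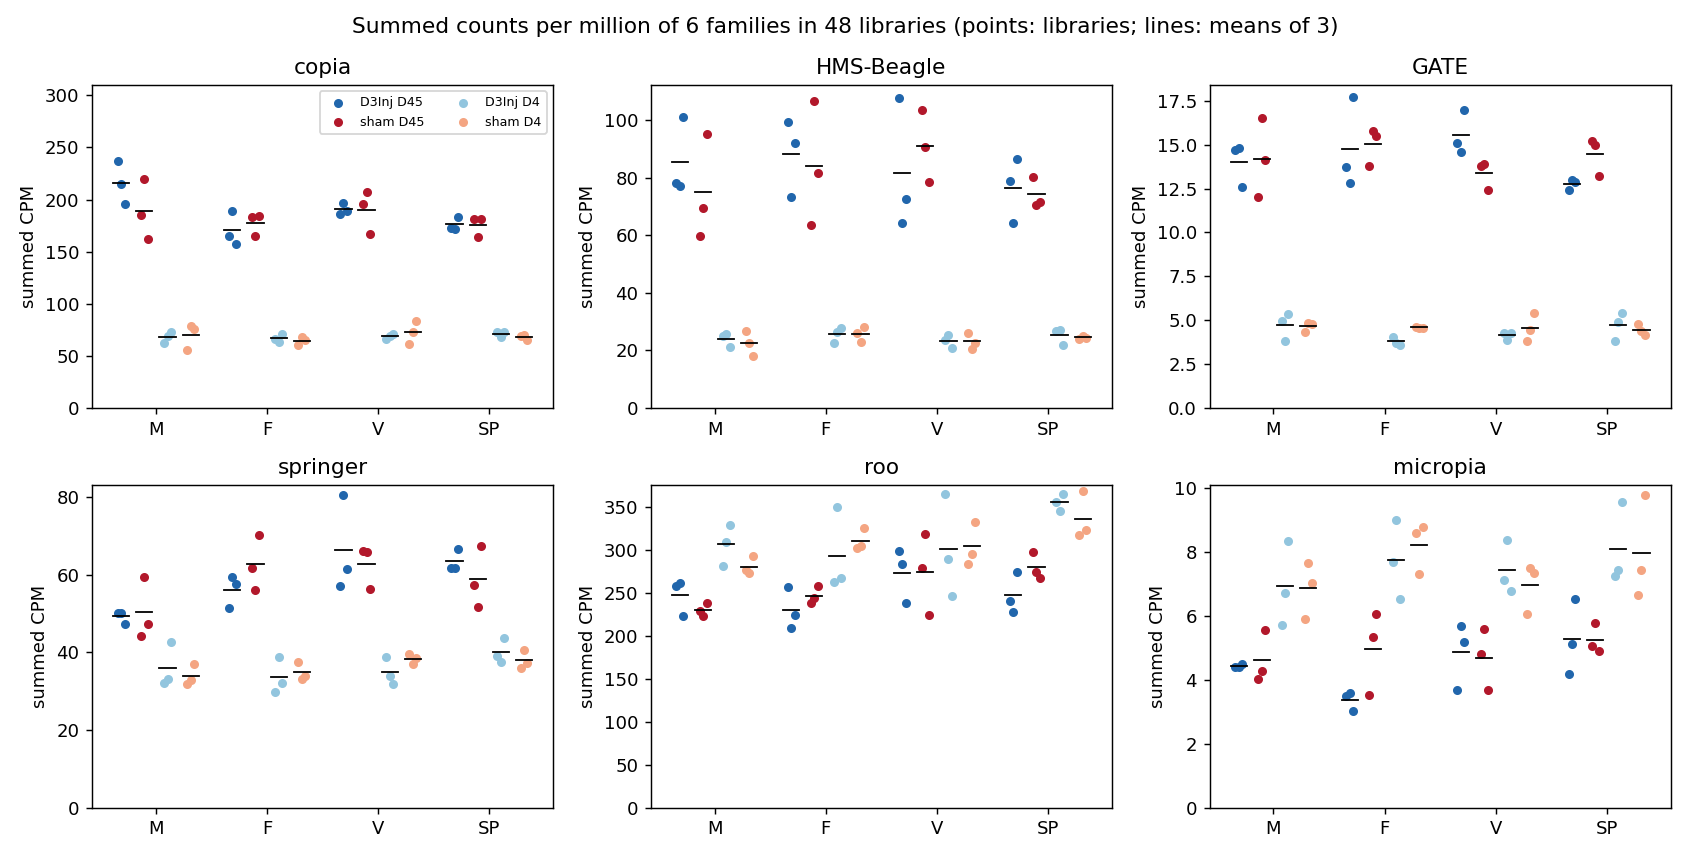
Summed CPM of copia, HMS-Beagle, GATE, springer, roo and micropia in each of the 48 libraries, by kind of fly (M, F, V, SP), with D45 groups left of D4 groups and D3Inj left of sham, and lines at the means of 3 libraries. In copia, HMS-Beagle and GATE the D45 points of every kind lie above all D4 points, and in roo and micropia the sham D45 and D4 ranges overlap.

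The families that were lower on D45 moved less. micropia had 3.52, 4.98 and 6.07 CPM as lowest, median and highest sham D45 library, against 5.91, 7.40 and 9.77 CPM in sham D4 libraries, a log2 fold change of -0.64 ± 0.096 (adjusted p = 3.66e-07, edgeR). It was called lower in each of the 4 kinds, between -0.58 and -0.75, although the ranges overlapped slightly. The other 4 of the 5 largest falls were Tabor at -0.63 ± 0.17, McClintock at -0.52 ± 0.10, rover at -0.49 ± 0.19 and Dm88 at -0.48 ± 0.13. These were uneven between kinds: Tabor gave -1.45 in F and between -0.23 and -0.44 elsewhere, and rover gave -1.14 in F and 0.07 in SP. Without their most abundant insertion, Tabor gave -0.34 (adjusted p = 0.136), McClintock -0.07 (adjusted p = 0.637) and Dm88 0.15 (adjusted p = 0.622). rover lost its call without SP sham D45 replicate 3 (adjusted p = 0.0513), and Dm88 without the 4 gut-rich libraries (-0.32, adjusted p = 0.0557).

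The most abundant families, in contrast to copia, mostly fell a little or were not called. roo, the family with the highest summed level, had 222.3, 250.6 and 318.2 CPM as lowest, median and highest sham D45 library and 272.6, 302.6 and 367.6 CPM in sham D4 libraries, a log2 fold change of -0.27 ± 0.057 (adjusted p = 8.14e-05, edgeR). invader2 gave -0.25, diver2 -0.20, 297 -0.20, 17.6 -0.11 and 3S18 -0.43, all called. 3S18 was the family among these whose ranges did not overlap, with 39.9 to 52.2 CPM on D45 and 54.9 to 74.8 CPM on D4. opus was called higher at 0.21 ± 0.029, and rooA at -0.08 and Quasimodo at -0.10 were not called.

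Among single insertions, 183 of 714 were called higher on D45 in sham brains (25.6%, against 28.6% of all 15640 features) and 133 lower (18.6%, against 25.9%). Calls were fewer within 1 kind: 100 higher and 61 lower in M (33.4% of all features called), 88 and 40 in F (28.2%), 97 and 32 in V (28.6%), and 89 and 39 in SP (27.9%). The V counts of 97 and 32 were 51 and 15 without the 4 gut-rich libraries, 2 of which are V sham D4 libraries. D3Inj brains gave 176 higher and 174 lower, with 28.3% and 27.1% of all features. The share of single insertions called was under that of all features in each of these comparisons. In both treatments 147 insertions were called higher and 102 lower, with 0 in opposite directions. Among the sham calls 122 insertions were more than 2-fold higher and 12 more than 2-fold lower. In 284 of the 316 called insertions the 4 kinds had the same sign. The shares of all features called in both treatments, changed by more than 2-fold or alike in sign are not given here. These counts are therefore not read as traits of LTR insertions.

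**Figure D3:**
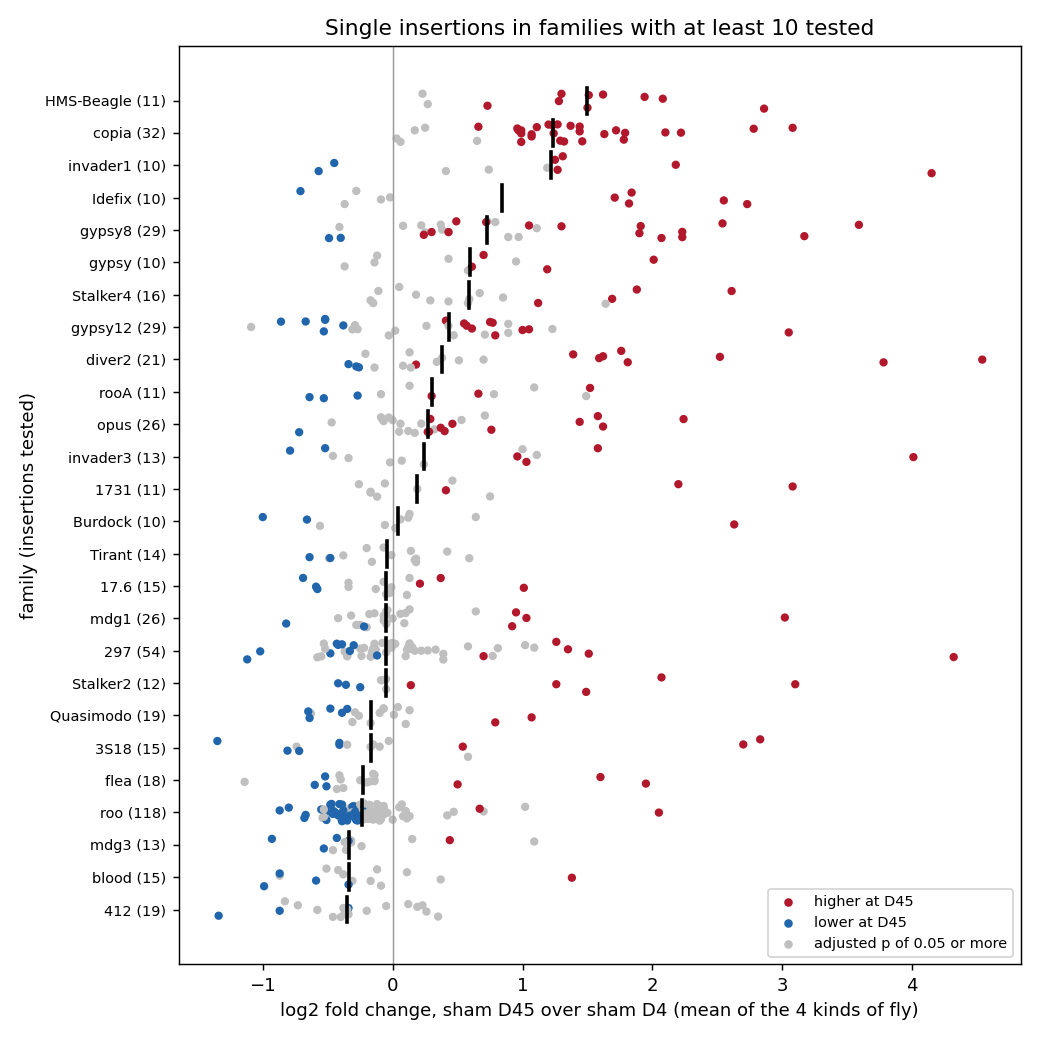
Log2 fold change, D45 over D4 in sham brains, of single insertions in the families with at least 10 tested insertions, coloured by call, with a black line at the family median. The 32 tested copia insertions lie above 0 with a median of 1.23, and most roo insertions lie below 0 with a median of -0.24.

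Within copia the counts of every tested insertion went in the direction of a rise. All 32 tested insertions had a positive log2 fold change, between 0.03 and 3.08 with a median of 1.23. Of these 27 were called higher and 0 lower, where 28.6% and 25.9% of all features were. How reads shared by near-identical copies were counted is not known. These insertions may thus not be independent, and how many copies rose was not tested. The most abundant, copia{}920 (3L:3601354-3606606, plus strand) in an intron of Eip63E, a cyclin-dependent kinase gene, had 39.3, 51.6 and 62.5 CPM as lowest, median and highest sham D45 library, against 14.8, 18.6 and 21.2 CPM in sham D4 libraries (1.44 ± 0.065, adjusted p = 8.2e-22, edgeR). Eip63E itself was lower, at -0.16 ± 0.025. copia{}293 (2L:2294097-2299243, minus strand), which overlaps no gene, had 30.0, 35.9 and 50.4 CPM on D45 and 9.33, 14.7 and 17.5 CPM on D4 (1.37 ± 0.086, adjusted p = 3.65e-17). The copia insertion with the largest change was copia{}631 in an intron of Nipped-A, the TRRAP homolog, chosen after its values were seen, with 7.52 to 19.2 CPM on D45 and 0.625 to 2.15 CPM on D4 (3.08 ± 0.22).

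HMS-Beagle was similar, with 9 of 11 tested insertions called higher, 0 lower and a median log2 fold change of 1.5. Over all features 28.6% were called higher and 25.9% lower. HMS-Beagle{}347, outside genes and holding 37.5% of the family's counts, had 22.6 to 40.9 CPM on D45 and 6.13 to 9.95 CPM on D4 (1.94 ± 0.11), and was named after its values were seen. In GATE the family value rested largely on 1 element. GATE{}1672 (2R:5367488-5372634, minus strand), outside genes and 131 bp from lncRNA:CR42646, held 51.9% of the family's counts and had 7.54, 9.29 and 10.4 CPM as lowest, median and highest sham D45 library, against 0.0951, 0.446 and 0.739 CPM in sham D4 libraries. Its log2 fold change was 4.47 ± 0.15 (adjusted p = 3.29e-26, edgeR) and the ranges were far apart.

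springer, also named after its values were seen, held copies that behaved differently. springer{}645 in an intron of sxc, the O-GlcNAc transferase gene, held 51.5% of the family's counts and had 20.6 to 27.1 CPM on D45 and 21.2 to 29.1 CPM on D4 (-0.06 ± 0.051, not called). Of the 9 tested springer insertions 7 were called higher and 0 lower, and springer{}1464 in an intron of Sox100B had 7.27 to 13.5 CPM on D45 and 0.940 to 2.88 CPM on D4 (2.53 ± 0.12). roo stood at the other end, with 42 of 118 tested insertions called lower, 2 higher and 105 with a negative log2 fold change. Its median was -0.24, against 0.00 over all features. Its 2 called risers, roo{}2355 in an intron of AGO3 at 2.05 and roo{}850 in an exon of grh at 0.67, both averaged under 1 CPM. In Transpac 7 of 9 tested insertions were called lower and 0 higher. Over all features 28.6% were called higher and 25.9% lower.

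The 5 called insertions with the largest rise were diver2{}540, GATE{}1672, 297{}3575, invader1{}677 and invader3{}1782, and apart from GATE{}1672 these held few counts. diver2{}540 (2L:22216161-22216547) had 97 counts in the 12 sham D45 libraries and 4 in the 12 sham D4 libraries, of which 10 had none, a ratio of normalized level of 20.5 with an exact 95% counting interval of 7.74 to 76.6. 297{}3575 (2R:5404228-5404716) had 77 and 7 counts (9.28, 4.30 to 23.9), invader1{}677 (2R:5543245-5547271) had 94 and 4 (19.8, 7.49 to 74.3), and invader3{}1782 (3L:23486259-23486992) had 195 and 11 (15, 8.18 to 30.5). These intervals cover counting error only. These 4 insertions passed the filter on low counts through D45 libraries, where they are high, so their ratios are given as description. Of the 4, only invader3{}1782 had ranges that did not overlap, 0.126 to 0.778 CPM on D45 and 0 to 0.0999 CPM on D4. invader1{}677 lies in an intron of Ugt50B3, a UDP-glycosyltransferase gene that was itself higher by 2.62 ± 0.18 on the log2 scale.

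The 5 called insertions with the largest fall were also sparse. micropia{}226 (X:21595636-21598644) had 73 counts in sham D45 libraries and 242 in sham D4 libraries, a ratio of 0.255 (0.193 to 0.332) and a log2 fold change of -1.89 ± 0.34 (adjusted p = 9.62e-06, edgeR). 3S18{}1090 (3L:22099731-22105858) had 117 and 252 counts (-1.35 ± 0.24), and Transpac{}RR48320 (2R:1500905-1506153) had 52 and 103 (-1.29 ± 0.38). 412{}165 (X:19136607-19143468), on the strand opposite to RhoGAP18B and overlapping one of its exons, had 159 and 360 counts (-1.34 ± 0.25), while RhoGAP18B was higher by 0.37 ± 0.037. rover{}1212 (3R:4887534-4894853) had 28 and 54 counts (-1.62 ± 0.63) and lost its call without the 4 gut-rich libraries (adjusted p = 0.253), M sham D4 replicate 1 (0.0549) or F sham D4 replicate 3 (0.0558).

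Of the most abundant insertions, several in neuronal genes were lower on D45. Tirant{}913 in an intron of Shab, a voltage-gated potassium channel gene, had 18.5, 22.2 and 29.1 CPM as lowest, median and highest sham D45 library and 29.5, 35.6 and 38.7 CPM in sham D4 libraries, with no overlap (-0.64 ± 0.059, adjusted p = 2.29e-12, edgeR). rooA{}1496 gave -0.27 ± 0.055, diver2{}4400 -0.28 ± 0.059, diver2{}4032 -0.26 ± 0.060, 297{}4042 -0.12 ± 0.051 and invader2{}1169 -0.34 ± 0.12, all called. Their host genes were lower too, Shab at -0.29, Syt7 at -0.48, nAChRalpha4 at -0.43 and Cadps at -0.39. gypsy6{}RR48376 was higher at 0.28 ± 0.084, as was its host Dbp80, a DEAD-box RNA helicase gene, at 0.53. invader2{}RR46358 in Parp1 was not called, at 0.09 ± 0.083. All 5 neuronal markers were called lower by age, with sums of 6781.3 to 7864.6 CPM in sham D45 libraries and 9122.8 to 10627.6 CPM in sham D4 libraries. Glial markers summed to 1453.6 to 1883.2 CPM on D45 and 2368.9 to 3200.9 CPM on D4, with 3 of 5 called lower and 2 higher. Of the tested markers of other cell types, 3 of 5 for photoreceptors, 2 of 3 for hemocytes and 2 of 6 for fat body were called higher. So were 2 of 5 for ovary and germline and 1 of 3 for muscle, and 1 of 6 for gut was called lower. Over all features 28.6% were called higher and 25.9% lower. The part of these shifts in the changes of insertions and families by age was not tested.

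Called shares differed by position and are to be read against the 28.6% higher and 25.9% lower over all features. Of 319 tested insertions outside genes 109 were called higher and 43 lower (34.2% and 13.5%), of 352 in introns 67 and 79 (19.0% and 22.4%), and of 43 overlapping exons 7 and 11 (16.3% and 25.6%). By chromosome the called insertions were mostly higher on 2R, with 69 higher and 23 lower of 202, and on 3L, with 59 and 33 of 182, and mostly lower on 3R, with 8 and 33 of 104, and on 4, with 3 and 10 of 18. Of the 59 higher on 3L, 17 lay in the single gene AGO3. The shares of genes called by chromosome are not given here. By distance from the centromeric end of the assembled arm, 92 of 294 insertions within 5 Mb were higher (31.3%), 50 of 161 between 5 and 10 Mb (31.1%) and 37 of 239 beyond 10 Mb (15.5%). The same shares were 34.8%, 28.9% and 31.7% for genes and 20.9%, 12.8% and 2.64% for the other transposon insertions. Insertions over 500 and up to 3000 bp were most often higher, 54 of 122, compared with 102 of 444 longer and 27 of 148 shorter ones. Sparse insertions that passed the filter on low counts through D45 libraries can raise the shares called higher. Insertions are not independent of each other, since copies share a family and neighbours share a host gene, so these shares are given without a test.

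Insertions in introns tended to move with their host gene. For 328 tested insertions in introns of 211 single host genes, the log2 fold changes by age of insertion and gene had a Pearson r of 0.672 and a Spearman rho of 0.60 across insertions, which share libraries, depth and in part host genes. Of the 135 with a called insertion, 48 were higher with their gene, 50 lower with it, 9 higher with a lower gene and 7 lower with a higher gene, and for 21 the gene was not called. The relation was alike for the 135 insertions on the strand of the gene (r = 0.675) and the 193 on the other strand (r = 0.67). The 18 copia and HMS-Beagle insertions were set apart after their values were seen. In these r was -0.0252, and 16 were called higher while their genes were called higher in 8 cases and lower in 5. In the 310 insertions of the other families r was 0.741.

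**Figure D4:**
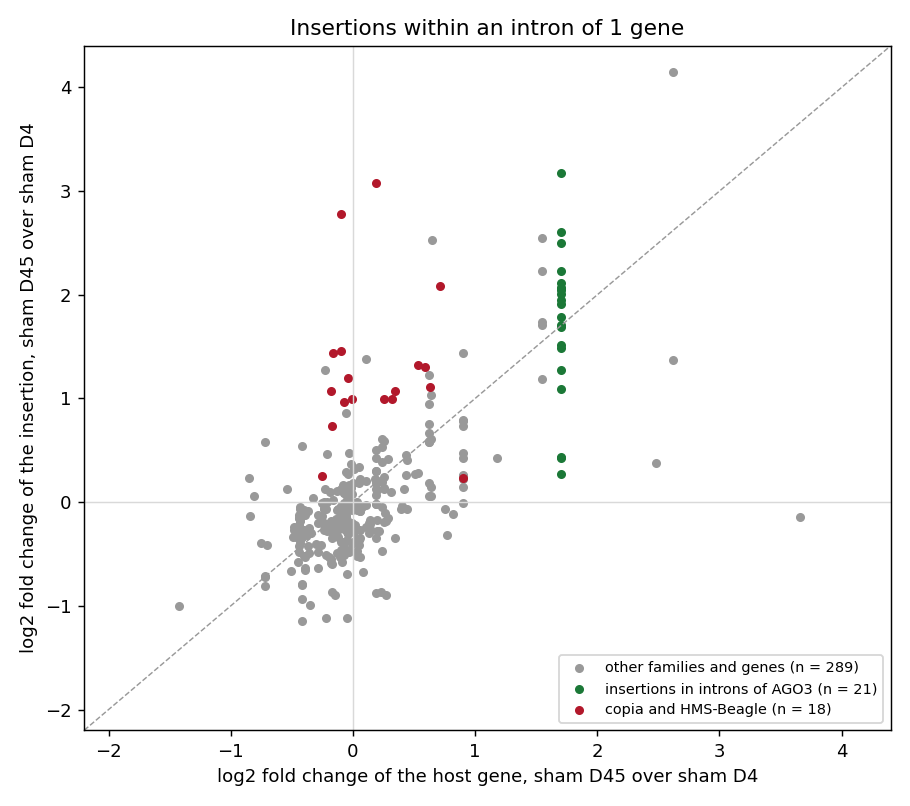
Log2 fold change by age of insertions in introns (vertical axis) and of their single host genes (horizontal axis) in sham brains, for 18 copia and HMS-Beagle insertions, 21 insertions in AGO3 and 289 others. Most points lie along the diagonal, and most copia and HMS-Beagle insertions lie above it at host gene values near 0.

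The largest group within 1 gene lay in AGO3, the gene of a piRNA-binding Argonaute protein whose introns lie in heterochromatin, and was chosen after its values were seen. Its introns held 21 tested insertions of 15 families, of which 17 were called higher on D45 and 0 lower, with log2 fold changes of 0.27 to 3.17. AGO3 itself had 1.49, 3.47 and 5.89 CPM as lowest, median and highest sham D45 library and 0.507, 0.974 and 2.29 CPM in sham D4 libraries (1.70 ± 0.24, adjusted p = 6.79e-08, edgeR). Members of families whose sums were lower or not called were among them, such as roo{}2355 at 2.05 ± 0.35 and rooA{}4668 at 1.52 ± 0.13. Of the other 6 host genes with 6 or more tested insertions, nAChRalpha4 showed the reverse, with 6 of 10 tested insertions called lower and 0 higher and the gene at -0.43 ± 0.071. In Nipped-A 6 of 8 were higher while the gene rose by only 0.19 ± 0.031, and in Marf1 4 of 6 were higher with the gene at 1.55 ± 0.15. In the flamenco piRNA cluster transcript, lncRNA:flam, 3 of 13 tested insertions were higher and 1 lower, with the transcript at 0.62 ± 0.13. In Ir41a 1 of 12 was higher with the gene at 0.90 ± 0.13, and in Myo81F 3 of 7 were lower with the gene at -0.42 ± 0.073. Of all features tested, 28.6% were called higher and 25.9% lower.

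The genes of transposon silencing were mostly higher on D45 themselves. Of 48 genes on a list of piRNA, siRNA and chromatin factors 47 were found and 44 tested, and 28 were called higher and 4 lower in sham brains, with a median log2 fold change of 0.23, against a median of 0.00 over all features, of which 28.6% were higher and 25.9% lower. D3Inj brains gave 28 and 5, where 28.3% and 27.1% of all features were called. The largest rises were in piRNA pathway genes at low levels: vret gave 2.19, spn-E 2.08, fs(1)Yb 1.86, krimp 1.79, AGO3 1.70, nxf2 1.63, piwi 1.52, vas 1.51 and qin 1.16. The sham D45 and D4 ranges overlapped for spn-E, fs(1)Yb, krimp, AGO3 and vas, and not for vret, nxf2, piwi and qin. fs(1)Yb, with an SE of 0.41, had 0 to 2.10 CPM on D45 and 0 to 0.712 CPM on D4. Sparse genes, like sparse insertions, can pass the filter on low counts through D45 libraries. piwi, which encodes the nuclear piRNA-binding protein of the ovary, had 2.91, 3.94 and 5.30 CPM as lowest, median and highest sham D45 library, against 0.775, 1.31 and 2.02 CPM in sham D4 libraries, with no overlap (adjusted p = 3.37e-15, edgeR). Of the siRNA genes, Dcr-2 rose by 0.13 ± 0.029, with 57.0 to 68.9 CPM on D45 and 49.8 to 61.9 CPM on D4. loqs was called lower at -0.11 ± 0.03. AGO2 (0.04 ± 0.028) and r2d2 (0.02 ± 0.043), named after their values were seen, were not called.

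Called genes with a part in chromatin included risers and fallers. Lam, the B-type lamin, was higher by 0.49 ± 0.026, Su(var)2-HP2 by 0.30 and egg, an H3K9 methyltransferase, by 0.19. Over the whole silencing list, not its chromatin genes alone, the 4 genes called lower were tej at -0.55, Panx at -0.31, wde at -0.12 and loqs at -0.11. The ovary and germline markers, which share vas with this list, also had a higher median sum on D45 (1.32 CPM) than on D4 (0.497 CPM) in sham libraries, and their part in the rise of the piRNA genes was not tested.

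Sex differences were few. Between M and F sham brains 14 of 596 insertions were called on D4, 8 higher and 6 lower in M, where 6.25% of all features were called, and 7 of 694 on D45, 4 higher and 3 lower, where 4.25% were. In all, 15 insertions were called on at least 1 day and 6 on both days. On the X chromosome 3 of 99 tested insertions were higher and 5 lower in M on D4, and 0 and 3 of 107 on D45, and on the autosomes 5 and 1 of 496 and 4 and 0 of 585. Of the 6 insertions lower in M on either day 5 lay on the X. Of tested X genes, 224 of 1971 were lower and 163 higher in M on D4, and 293 of 2023 were lower and 83 higher on D45. Of autosomal genes, 220 of 10061 were lower and 260 higher on D4, and 113 of 10340 were lower and 122 higher on D45. Called genes were thus more frequent on the X in both directions. The part of the stock of origin of the X, which differs between M and F, in the calls on the X was not tested. DESeq2 and a fit of all 48 libraries each called 12 on D45 in place of 7.

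opus gave the clearest difference. opus{}821 (2R:13728187-13735788, plus strand), in an intron of tei, had 33.4, 32.2 and 30.9 CPM in M and 18.0, 15 and 18.8 CPM in F on D45 (0.89 ± 0.10, adjusted p = 3.73e-06, edgeR), and 20.9, 21.8 and 25.9 CPM in M and 12.8, 11.9 and 11.9 CPM in F on D4 (0.90 ± 0.11, adjusted p = 1.31e-05). No M library reached down to an F library on either day, while tei itself was not called, at -0.06 and 0.02. On D4 opus{}1033 (1.00 ± 0.16), opus{}861 (0.99 ± 0.18) and, named after its values were seen, opus{}33 on the X (0.89 ± 0.19) were also higher in M. The summed opus counts followed, with 103.8, 106.0 and 100.8 CPM in M and 81.6, 81.2 and 82.0 CPM in F on D45 (0.33 ± 0.060, adjusted p = 0.000879) and 87.9, 86.7 and 92.6 CPM in M and 65.3, 64.8 and 69.5 CPM in F on D4 (0.41 ± 0.055, adjusted p = 3.39e-05). Over insertions outside genes alone, opus gave 0.10 on D45 (adjusted p = 0.576).

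**Figure D5:**
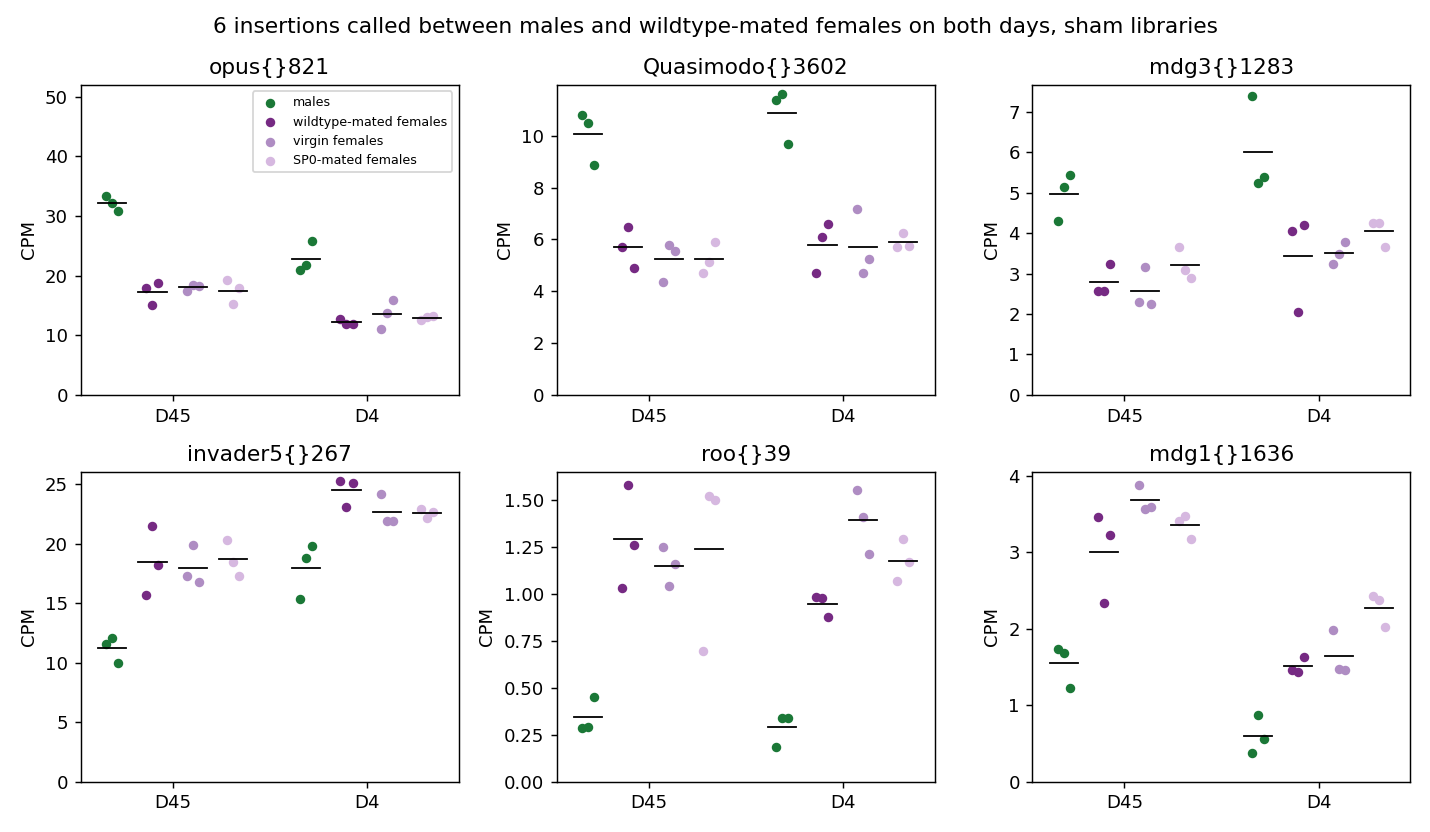
CPM of the 6 insertions called between M and F sham brains on both days, in each sham library by day and kind of fly, with lines at the means of 3 libraries. opus{}821, Quasimodo{}3602 and mdg3{}1283 are higher in males than in all 3 kinds of female, and invader5{}267, mdg1{}1636 and roo{}39 are lower.

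Another pair of insertions was higher in M on both days. Quasimodo{}3602 (2R:4543280-4543938), outside genes, had 10.8, 10.5 and 8.89 CPM in M and 5.71, 6.49 and 4.91 CPM in F on D45 (0.82 ± 0.19), and 11.4, 11.6 and 9.69 CPM in M and 4.69, 6.09 and 6.58 CPM in F on D4 (0.91 ± 0.20). mdg3{}1283 (3R:10231837-10237356), in an intron of CG42795, had 4.31, 5.15 and 5.45 CPM in M and 2.58, 2.56 and 3.23 CPM in F on D45 (0.82 ± 0.19), and 7.40, 5.24 and 5.39 CPM in M and 4.06, 2.05 and 4.21 CPM in F on D4 (0.80 ± 0.21). The groups did not overlap for either insertion on either day. On D45 the call of Quasimodo{}3602 was lost without F replicate 3 (adjusted p = 0.0661), and that of mdg3{}1283 without F replicate 1 (0.0619) or 2 (0.0592). gypsy5{}2668 (X:22427099-22429821; 83 counts in M and 16 in F on D4), mdg3{}CG42395[iso-1] (X:9575846-9576112; 78 and 24) and gypsy12{}4992 (2R:5638626-5639514; 77 and 14 on D45) were called higher on 1 day each, at 2.25, 1.57 and 1.98, and each lost its call when 1 of several single libraries was left out, with adjusted p of up to 0.0641, 0.118 and 0.19.

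3 insertions on the X were lower in M on both days. invader5{}267 (X:22702054-22705746), in an intron of lncRNA:CR44997, had 11.6, 12.1 and 9.96 CPM in M and 15.7, 21.5 and 18.2 CPM in F on D45 (-0.72 ± 0.13, adjusted p = 0.00104, edgeR), and 15.4, 18.8 and 19.8 CPM in M and 25.3, 23.1 and 25.1 CPM in F on D4 (-0.45 ± 0.091, adjusted p = 0.00338). Its host lncRNA was lower in M by a like amount, -0.50 ± 0.083 on D45 and -0.33 ± 0.059 on D4. mdg1{}1636 (X:21523177-21556097), opposite to lncRNA:CR46472, had 1.74, 1.68 and 1.23 CPM in M and 3.46, 2.34 and 3.23 CPM in F on D45 (-0.94 ± 0.19), and 0.372, 0.869 and 0.557 CPM in M and 1.46, 1.43 and 1.63 CPM in F on D4 (-1.30 ± 0.27). roo{}39 (X:3597606-3602314), in an intron of the allatostatin A receptor gene AstA-R1, had 0.287, 0.292 and 0.451 CPM in M and 1.03, 1.58 and 1.26 CPM in F on D45 (-1.96 ± 0.40), and 0.186, 0.341 and 0.341 CPM in M and 0.982, 0.975 and 0.875 CPM in F on D4 (-1.68 ± 0.31). AstA-R1 was not called, at -0.10 and -0.05, and the groups did not overlap for any of these insertions.

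The other insertions lower in M were called on D4 alone. 1731{}3268 (X:22558010-22559863) had 0 counts in the 3 M sham libraries and 30 in the 3 F sham libraries, with 0.349, 0.418 and 0.292 CPM, so that it was at least 10.8-fold lower in M against a floor of 3 counts over the group. The other M and F libraries were nearer to each other. D3Inj libraries on D4 had 5, 0 and 3 counts in M and 4, 12 and 8 in F, and sham libraries on D45 had 0.108, 0.183 and 0.164 CPM in M and 0.0293, 0.113 and 0.245 CPM in F. 412{}2 (X:295904-303475), in an intron of CG3777, had 13 counts in M and 45 in F (-1.91 ± 0.56, adjusted p = 0.042), a call lost when any of 5 single libraries was left out, with adjusted p of 0.0762 to 0.153. rooA{}2889 in Nipped-A, named after its values were seen, gave -0.37 ± 0.11. Among family sums, 4 of 54 were called on D4 (7.39% of all features), opus, mdg3 at 0.52, invader5 at -0.46 and 17.6 at -0.26, and 3 on D45 (5.26%), opus, invader5 at -0.67 and mdg1 at -0.36. The calls of 17.6 (adjusted p = 0.0653 to 0.248) and mdg1 (0.0851 to 0.159) were each lost when 1 of several single libraries was left out, and invader5 rests on invader5{}267, which held 97.6% of its counts. With a replicate block, mdg1 on D45 had an adjusted p of 0.0555.

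The age change itself was not called as different between the sexes or between mating states. The test of M against F ageing called 0 of 714 insertions (0.0831% of all features, 29 at an unadjusted p under 0.05), F against V ageing 0 (0.00639%, 31 unadjusted) and F against SP ageing 0 (0.0%, 42 unadjusted). DESeq2 gave 0, 1 and 0.

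Between mating states 1 insertion was called. Stalker2{}106 (X:11312119-11319407, minus strand), 911 bp from Ir10a, had 14.6, 18.5 and 20.4 CPM in F and 26.0, 27.7 and 26.7 CPM in V sham brains on D4, where 0.0615% of all features were called (-0.59 ± 0.10, adjusted p = 0.0207, edgeR). SP libraries had 19.9, 21.2 and 21.1 CPM, overlapping with F and below V. On D45 the groups overlapped, with 23.2, 25.4 and 22.9 CPM in F and 24.7, 22.4 and 23.4 CPM in V. The call was lost without the 4 gut-rich libraries (-0.64, adjusted p = 0.866), which include 1 F library and 2 V libraries, and without F replicate 1 (0.0982) or 2 (0.0924) or V replicate 2 (0.167) or 3 (0.171). F against SP on D4, F against V on D45 and F against SP on D45 gave 0 called insertions each, with 0.0%, 0.0% and 0.0131% of all features called, 48, 18 and 26 insertions at an unadjusted p under 0.05, and 0 calls by DESeq2.

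Injury was followed by no called LTR insertion. On D4, D3Inj against sham called 0 of 596 insertions in M (0.00683% of all features), F (0.0%), V (0.0547%) and SP (0.00683%), and on D45 0 of 694 in M, F, V and SP (0.0% each). At an unadjusted p under 0.05 the counts were 22, 27, 28 and 27 on D4 and 43, 36, 3 and 28 on D45, and DESeq2 called 0 in each of the 8 comparisons. Without the 4 gut-rich libraries, 1 of them D3Inj M, 1 insertion was called lower in M on D4.

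The direction of the small differences was uneven. In M on D45 the summed level of all LTR insertions was 2262.2 ± 62.6 CPM in D3Inj brains and 2033.1 ± 70.9 CPM in sham brains (SD, n = 3 each), and 491 of 694 insertions and 46 of 54 families had a positive log2 fold change, with a median of 0.16 over insertions and 0.00 over all features. In F on D45 it was 1977.2 ± 169.1 CPM in D3Inj brains and 2116.1 ± 141.8 CPM in sham brains, and 455 of 694 insertions and 42 of 54 families were negative, with a median of -0.11. Like skews also arose on D4 and without injury. In SP on D4, 387 of 596 insertions and 47 of 54 families were positive for injury. In sham brains on D45, 441 of 694 insertions and 45 of 54 families were lower in F than in V. Insertions share libraries, and the shares of all features by sign are not given here, so these counts are given as description. The difference between the M and F responses on D45 called 0 insertions (0.0%), with 46 at an unadjusted p under 0.05 and a median of 0.28, and its lowest adjusted p was 0.881 for insertions and 0.985 for families. The same contrasts of M against F on D4, and of F against V and F against SP on both days, called 0 insertions with 0.0% of all features each, and DESeq2 called 1 in F against SP on D4. The copia libraries overlapped between treatments, with 216.1 ± 20.8 CPM in D3Inj and 189.2 ± 28.9 CPM in sham M and 170.5 ± 16.5 CPM in D3Inj and 177.6 ± 11.1 CPM in sham F on D45.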

How the data were processed

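Brain RNA of 48 libraries was measured as read counts per feature. The authors aligned paired reads of a directional library to dm6 with RNA STAR and deposited raw counts per gene and transposon insertion from featureCounts. How multi-mapped reads were handled, and on which strand reads were counted, is not given in the sources used here. Library identity followed the column headers, with "young" read as D3Inj, and 0 columns were left out. Positions and host genes came from Ensembl release 115.

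Counts were tested with edgeR 4.0.16 in R 4.3.3 (TMM scaling, filterByExpr by group, quasi-likelihood test, 1 coefficient per group). Sex, mating and injury used the 24 libraries of a day, and age used all 48. Benjamini-Hochberg adjustment covered every feature tested, genes included, and SE is the log2 fold change divided by the square root of F. Family sums were tested in a second table in place of single insertions. CPM used TMM-scaled totals. DESeq2 1.42.0, another scaling, no filter, a replicate block, the deposit record, left-out libraries and other family sums were tried. The scripts were tested on simulated data.

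Named insertions were the 10 with the highest mean CPM and, per comparison, up to 5 called in each direction by size of change. Named families followed the same rule. The family list, gene lists and markers were chosen with earlier results of these data known. No sequences were printed, and a planned count of unique windows of read length was not run.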

Additional observations from a re-analysis of the deposited data

How the results depend on the processing

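With libraries assigned by the record of the deposit, 0 insertions and 0 families were called by age, sex or mating in every fit that made calls by header. Under that record the log2 values that changed sign were -0.12 for invader1{}677, 0.3 for rover{}1212, 0.21 for Dm88, 0.02 for McClintock, 0.14 for Tabor and 0.2 for rover by age. Stalker2{}106 gave 0.26 by mating. By sex on D45 mdg3{}1283 gave -0.11, roo{}39 0.06, mdg1{}1636 0.32, Quasimodo{}3602 -0.16 and mdg1 0.07, and on D4 roo{}39 gave 0.04, mdg3{}CG42395[iso-1] -0.22, mdg1{}1636 0.65, gypsy5{}2668 -0.96, 17.6 0.09 and mdg3 -0.1.

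Without the 4 gut-rich libraries V ageing called 66 insertions in place of 129 (61 shared) and 9 families in place of 20, mating F against V on D4 called 0 insertions in place of 1, and injury in M on D4 called 1 in place of 0. DESeq2 called 1 insertion in F against V ageing, 1 in the F against SP injury response on D4 and 12 by sex on D45, and all 48 libraries gave 12 by sex on D45. Mating F against V on D4 called 1 family in place of 0 without the filter, with DESeq2, with all 48 libraries, with the replicate block and over insertions outside genes. Outside genes, sex called 1 family on D4 in place of 4 and 0 on D45 in place of 3. Without the most abundant insertion sex called 1 family on D45, Dm88 gave 0.15 by age and invader5 0.41 by sex on D45. The causes of these shifts were not tested.

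The replicate block called 315 insertions by age in place of 316 (312 shared), and 0 of 19 comparisons had all 3 pair correlations over 0.1 (-0.164 to 0.31). This rule cannot exclude pairing of some libraries by number. F against V on D4 gave 0.31, -0.051 and 0.26, and the study's methods state that experimental and control flies of an experiment were handled together. The main fits were unpaired. Leaving out 1 library gave 298 to 323 insertions by age in sham and 334 to 358 in D3Inj brains, 115 to 143 in M, 104 to 115 in F, 104 to 121 in V and 102 to 114 in SP. It gave 10 to 17 insertions by sex on D4, 6 to 8 on D45 and 0 to 1 by mating on D4. Families ranged over 35 to 38 in sham, 36 to 39 in D3Inj, 19 to 23 in M, 20 to 23 in F, 15 to 20 in V, 16 to 18 in SP, 3 to 5 and 2 to 3 by sex on D4 and D45, and 0 to 1 by mating on D4. Counts of insertions with few reads limit calls among them.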
